A study of Mus musculus with 4 samples.

Results

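Glycine, its N-methylated form sarcosine and creatine are joined by a short chain of enzymes, and 10 mouse genes of that chain were examined in the pancreas of Cyp11a1 knockout and wild-type embryos. They are Pipox, Sardh, Dmgdh, Gnmt, Gatm, Gamt, Slc6a8, Ckb, Gldc and Amt. A probe was taken where the RefSeq transcript that the array design gives for it belongs to one of these genes, which found probes for 9 of the 10 genes, of 17305 genes with a probe in all. No probe was matched to Amt, which is not analysed here. The genes were chosen by their log2 ratios on these same arrays, knockout over wild type, so the ratios are given as a description without p-values.

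Gnmt transfers a methyl group from S-adenosylmethionine to glycine and so makes sarcosine. Sardh in mitochondria and Pipox in peroxisomes turn sarcosine back into glycine, and Pipox also oxidises pipecolate, a product of lysine. Dmgdh makes sarcosine from dimethylglycine, and the glycine cleavage system, to which Gldc and Amt belong, breaks glycine down to a one-carbon unit on folate. For creatine, Gatm joins the amidino group of arginine to glycine, Gamt methylates the product, Slc6a8 carries creatine into cells and Ckb, the brain-type creatine kinase, phosphorylates it. Exocrine pancreas is known as a tissue with abundant Gnmt and Gatm.

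The study measured pancreas at E18.5, late in gestation, from knockout and wild-type mice of strain C57BL/6JNarl on 4 two-colour Agilent arrays. Cyp11a1 encodes the enzyme that makes pregnenolone from cholesterol, the entry to all steroid hormones. On every array a knockout extract in the red dye was hybridised together with a wild-type extract in the green dye, so a dye effect of a single probe and the genotype cannot be told apart. The sources used here do not give the targeted allele, the sex of the embryos or the number of embryos behind an extract. The labels call the arrays biological replicates, and if extracts share an origin the p-values measure a spread that is in part technical.

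For Cyp11a1 itself the brighter of its probes read -0.16 ± 0.070 on the log2 scale (SE, n = 4, limma adjusted p = 0.164), and whether it lies in the deleted part is not stated, so it does not check the genotype. The median signal of knockout channels ran from 304 to 467 and that of wild-type channels from 163 to 224, no spot was saturated, and the number of arrays limits the precision. Of the markers fixed for the tissue, 13 of 14 acinar and 8 of 9 islet genes were measured, and every one stood well above background in knockout and wild type alike on all 4 arrays. In bulk tissue, fewer cells of a type and less RNA per cell cannot be told apart. All ratios are log2 of knockout over wild type after loess normalisation, and all levels are log2 intensities of a channel. The median ratio of all genes tested was 0.013.

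The promoters of the 3 genes with the largest ratios are shown because these genes lay on both sides of 0 within the same chain. Each line gives the 250 bases before the RefSeq start of the gene in build GRCm38.p6, 5′ to 3′ on the gene's strand. Capitals mark matches to the letters searched, which were an octamer of POU factors in Pipox, CCAAT boxes in Gatm and Sp1 boxes in Gamt.
Pipox (chr11:77893873-77894122, minus strand): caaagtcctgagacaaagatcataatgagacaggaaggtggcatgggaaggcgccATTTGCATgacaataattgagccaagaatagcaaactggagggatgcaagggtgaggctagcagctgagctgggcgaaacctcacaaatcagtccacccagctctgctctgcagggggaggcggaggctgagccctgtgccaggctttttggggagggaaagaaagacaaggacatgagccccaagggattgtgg
Gatm (chr2:122611278-122611527, minus strand): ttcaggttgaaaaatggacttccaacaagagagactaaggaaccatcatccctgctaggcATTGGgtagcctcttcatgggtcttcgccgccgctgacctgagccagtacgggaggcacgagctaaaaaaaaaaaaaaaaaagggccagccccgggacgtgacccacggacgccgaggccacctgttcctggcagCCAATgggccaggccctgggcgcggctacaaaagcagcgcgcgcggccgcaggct
Gamt (chr10:80261013-80261262, minus strand): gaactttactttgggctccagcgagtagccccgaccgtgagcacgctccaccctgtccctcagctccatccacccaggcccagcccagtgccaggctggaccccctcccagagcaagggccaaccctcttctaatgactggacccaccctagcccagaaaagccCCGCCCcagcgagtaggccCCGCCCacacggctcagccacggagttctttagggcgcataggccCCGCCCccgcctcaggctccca

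Promoters of 9 of the 10 genes were in the RefSeq table, and 8 sets of letters were searched on both strands. The octamer ATGCAAAT, bound by POU factors, was in the Pipox promoter from -195 to -188 and in 1.6% of 32851 promoters. The CCAAT box was in the Gatm promoter from -190 to -186 and from -55 to -51, and in 5 of the 9 promoters against 33.8% of all. The Sp1 box GGGCGG occurred 3 times in the Gamt promoter, in 4 of the 9 promoters and in 32.7% of all. The sterol response letters TCACNCCAC were in the Gnmt promoter from -244 to -236 and in 1.05% of all promoters, and TATAAA was in the Ckb promoter from -28 to -23 and in 12.4% of all. The glucocorticoid receptor palindrome, which is AGAACA, any 3 bases and TGTTCT (0.00913% of all promoters), its single arm AGAACA (16.1%) and the ATF4 composite letters TGATGNAA (3.45%) were in none of these 9 windows. The single arm is part of the palindrome, so the letters of these 2 searches overlap.

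In knockout pancreas Pipox was higher, Gatm lower and Gamt modestly higher, whereas the other measured genes of the chain lay close to 0. Of the 8 genes tested, 2 were higher and 1 lower past the threshold (limma, Benjamini-Hochberg adjusted p under 0.05 over all genes). Of all 15524 genes tested, 14.6% passed in either direction, 9.45% as higher and 5.11% as lower. At an unadjusted p under 0.05 in limma there were 4777 of the 15524 genes, in either direction. Higher genes made up 64.91% of those past the threshold, against 79.44% with median centring in place of loess. Because the genes were chosen with these values known, nothing is read from the count. The median ratio of the 8 genes was 0.023.

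**Figure D1:**
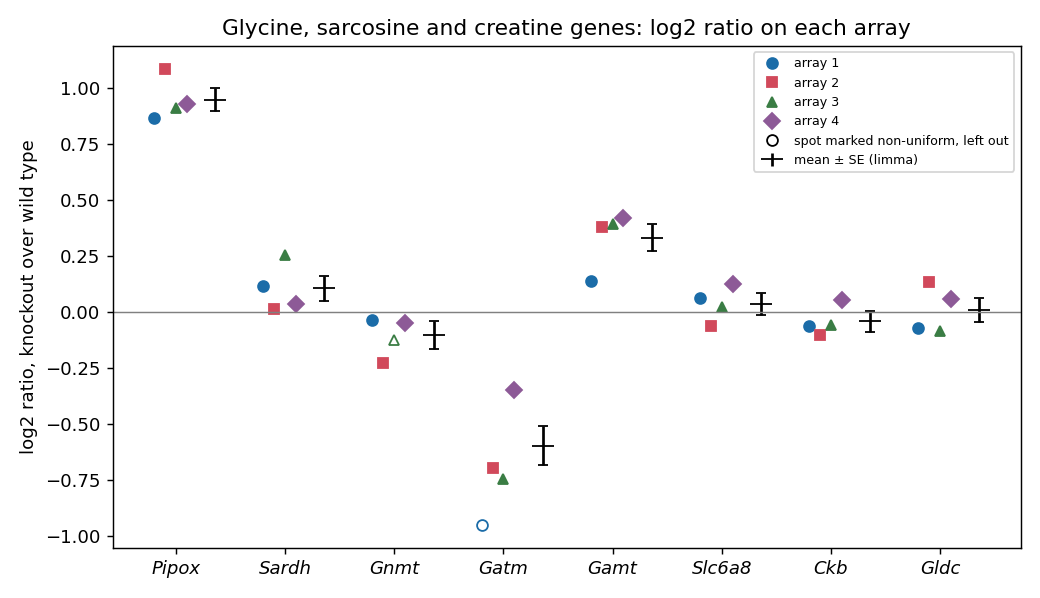
Log2 ratio of knockout over wild type (vertical axis) for the 8 genes tested, with a symbol per array and the limma mean ± SE as a bar. Pipox sits between 0.87 and 1.09 on all 4 arrays, Gatm below 0 on its 3 arrays, and open symbols are spots left out as non-uniform.

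Pipox, the peroxisomal sarcosine and pipecolate oxidase, had ratios of 0.87, 1.09, 0.91 and 0.93 on arrays 1 to 4. Its levels were 10.90, 10.86, 11.04 and 10.65 in the knockout channel, against 10.03, 9.77, 10.13 and 9.72 in the wild-type channel. Every knockout extract was above every wild-type extract, and the lowest knockout level lay over the highest wild-type level. How many of all genes separate in this way was not counted, so the separation is a description only. The mean ratio was 0.95 ± 0.051 (SE, n = 4), or 1.93-fold, which ranked 10 from the top of all genes tested. Across 15 alternative ways of processing it lay between 0.90 and 1.32.

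Sardh, the mitochondrial sarcosine dehydrogenase, carries out the same demethylation as Pipox and had ratios of 0.12, 0.015, 0.26 and 0.036 on arrays 1 to 4. Its levels were 9.21, 9.31, 9.37 and 9.24 in knockout, against 9.09, 9.30, 9.12 and 9.21 in wild type, and the groups overlapped. The mean ratio was 0.11 ± 0.054 (SE, n = 4), above 0 on all 4 arrays but not past the threshold. With median centring in place of loess it was 0.37 and past the threshold, or 0.12 above the median gene, since the median of all genes was then 0.26.

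Dmgdh, which feeds sarcosine into the chain, was not well above background in either channel on any of the 4 arrays. It was therefore not tested and no fold is given.

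Gnmt, the enzyme that makes sarcosine, had ratios of -0.036, -0.23 and -0.046 on arrays 1, 2 and 4, while its spot on array 3 was marked as non-uniform and left out. Its levels were 14.73, 14.93 and 15.23 in knockout, against 14.76, 15.16 and 15.27 in wild type, and the groups overlapped almost fully. The mean ratio of -0.10 ± 0.062 (SE, n = 3) did not pass, and with median centring it was 0.45 and past the threshold, or 0.20 above the median gene. The direction of this bright probe thus depends on the normalisation. The sarcosine-oxidising and sarcosine-making genes next to Pipox in the chain therefore gave values from -0.10 to 0.11, beside 0.95 for Pipox.

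Gatm, the first enzyme of creatine synthesis, had ratios of -0.69, -0.75 and -0.35 on arrays 2 to 4. Its levels were 12.41, 11.80 and 12.67 in knockout, against 13.11, 12.55 and 13.02 in wild type. Knockout was lower than its wild-type partner on each of these arrays, but the knockout level of array 4 exceeded the wild-type level of array 3, so the groups overlapped across arrays. The mean ratio was -0.60 ± 0.086 (SE, n = 3), or 1.51-fold lower in knockout, and ranked 92 from the bottom of all genes tested. The spot of array 1 was marked as non-uniform and gave -0.95. With it kept, the mean was -0.68. With median centring the ratio was -0.12 and did not pass, or -0.38 when set against the median gene.

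Gamt, the second enzyme of creatine synthesis, had ratios of 0.14, 0.38, 0.39 and 0.42 on arrays 1 to 4. Its levels were 11.42, 11.58, 11.73 and 11.64 in knockout, against 11.28, 11.20, 11.34 and 11.22 in wild type. The knockout extracts were all above the wild-type extracts, by the smallest margin on array 1, which is again a description without a count over all genes. The mean ratio was 0.33 ± 0.059 (SE, n = 4), or 1.26-fold, and without array 4 it was 0.30 and not past the threshold. The 2 enzymes of creatine synthesis therefore lay on opposite sides of 0, Gatm lower and Gamt higher in knockout, and did so with median centring once the median gene was subtracted (-0.38 and 0.51).

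The probe of Gamt was printed in 10 spots on each array, which separates the error of a spot from the difference between arrays. The SD of the 10 spots was 0.047, 0.032, 0.038 and 0.037 on arrays 1 to 4, whereas the SD of the 4 array means was 0.13. On array 1 the spots ran from 0.063 to 0.23, and the lowest spot of any other array was 0.32. The spots measure technical error alone, whereas the arrays also differ in their extracts.

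**Figure D2:**
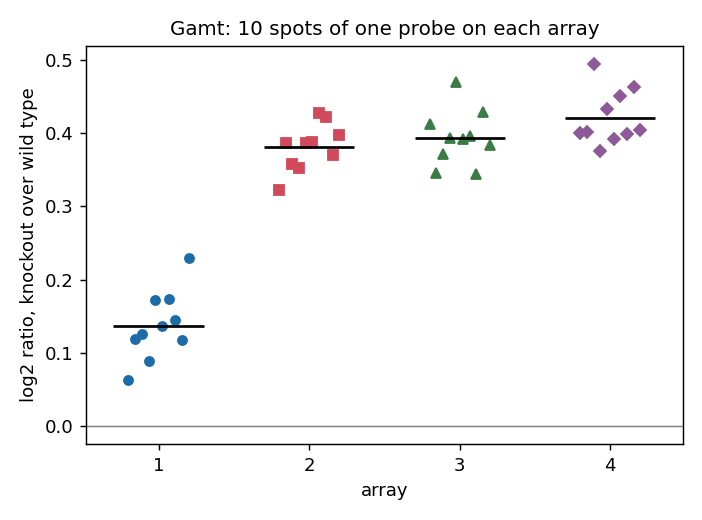
Log2 ratio of Gamt (vertical axis) in the 10 spots of its probe on each of the 4 arrays (horizontal axis), with a line at each array's mean. The spots of array 1 lie between 0.063 and 0.23, below all spots of the other arrays.

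Slc6a8, the creatine transporter, had ratios of 0.063, -0.063, 0.025 and 0.13 on arrays 1 to 4. Its levels ran from 7.90 to 8.13 in knockout and from 7.87 to 8.04 in wild type, and the mean ratio was 0.038 ± 0.049 (SE, n = 4). Ckb was read by a pair of probes. The brighter gave -0.061, -0.10, -0.055 and 0.054 with a mean of -0.041 ± 0.047 (SE, n = 4), and the other gave 0.15, -0.010, -0.027 and 0.071 with a mean of 0.046. Neither gene passed the threshold, both probes of Ckb changed sign between arrays, and with median centring Ckb was at 0.19 and past the threshold, or -0.066 against the median gene. Slc6a8 was then at 0.037 and did not pass, or -0.22 against the median gene.

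Gldc, the decarboxylase of the glycine cleavage system, had ratios of -0.072, 0.13, -0.083 and 0.057 on arrays 1 to 4. Its levels were 7.09, 7.25, 7.06 and 7.02 in knockout, against 7.17, 7.11, 7.15 and 6.97 in wild type, and the groups overlapped. The mean ratio was 0.0089 ± 0.053 (SE, n = 4). With median centring this dim probe was at -0.30 and past the threshold, or -0.55 against the median gene.

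**Figure D3:**
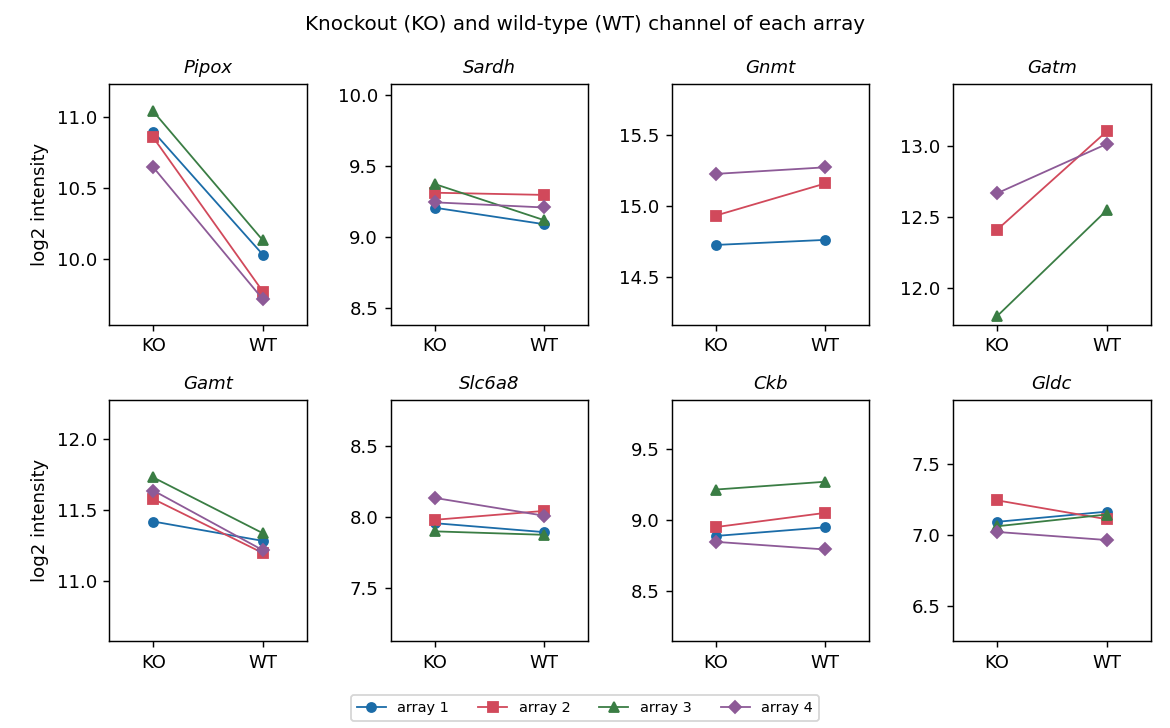
Log2 intensity (vertical axis, the same span in every panel) in the knockout (KO, left) and wild-type (WT, right) channel of each array for the 8 genes tested, with a line joining the 2 channels of an array. All KO points lie above all WT points for Pipox and Gamt, and each line of Gatm rises towards WT. How many of all genes separate in this way was not counted.

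Pipox, Sardh, Gnmt and Gldc are also known as genes of hepatocytes, and Pipox and Gatm as genes of kidney, so markers of these tissues were set beside them. Of 18 hepatocyte markers 16 had a probe and 14 were measured, while Apoh and Hpx had a probe but were not tested. Being tested itself required a probe well above background in 1 channel on at least 3 arrays. Both extracts were so on every array for the 14. Of them 1, Ambp, rose (0.60, limma adjusted p = 0.0026), with ratios of 0.45, 0.76, 0.73 and 0.47 on arrays 1 to 4. Alb, serum albumin, was at 4.13, 2.70, -3.52 and 1.44 on arrays 1 to 4, and Ahsg, fetuin A, at 4.09, 2.69, -2.93 and 1.44. On array 3 only 3 of the 14 markers were above 0, with a median of -0.46, whereas on array 1 the median was 1.13 over 12 markers. The summed intensity of the list ran from 35470 to 53940 in knockout and from 17460 to 49640 in wild type. Both lowest sums were those of array 1, where Apob and Ttr had no value and were left out. Apob was the brightest of these markers on arrays 2 to 4 (14.55 to 14.97 in knockout), so the sums of array 1 are not comparable with the others. Pipox was at 0.91 on array 3, where Alb and Ahsg were lower in knockout, and at 0.87 on array 1, where both were higher. The 3 markers above 0 on array 3 were Ambp (0.73), Itih1 (0.14) and Apoa2 (0.054), which were above 0 on array 1 too. The part of hepatocyte RNA in the ratios of Pipox, Sardh, Gnmt and Gldc was not tested. Of 8 markers of kidney proximal tubule 5 were measured, none past the threshold in limma (1 lower at an unadjusted p under 0.05), with a median of -0.00097 and summed intensities of 3361 to 4235 in knockout and 3391 to 4276 in wild type.

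Acinar enzymes, like Gamt, had their lowest ratios on array 1, and of 13 acinar markers 5 rose and 2 fell. Array 1 held the lowest ratio for 12 of the 13 acinar markers, against 28.0% of 14923 genes measured on all arrays. Cpa1, a digestive carboxypeptidase, was at 0.26, 0.68, 0.65 and 0.88 on arrays 1 to 4, and Cel, a lipase, at 0.35, 0.65, 0.64 and 1.01. Cela1, an elastase, was at -1.10, -0.72, -0.70 and -0.23. The summed intensity of the acinar list ran from 860700 to 1125000 in knockout and from 744200 to 869100 in wild type. The part of the acinar share of the RNA in the ratios of Gamt and Gatm was not tested.

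**Figure D4:**
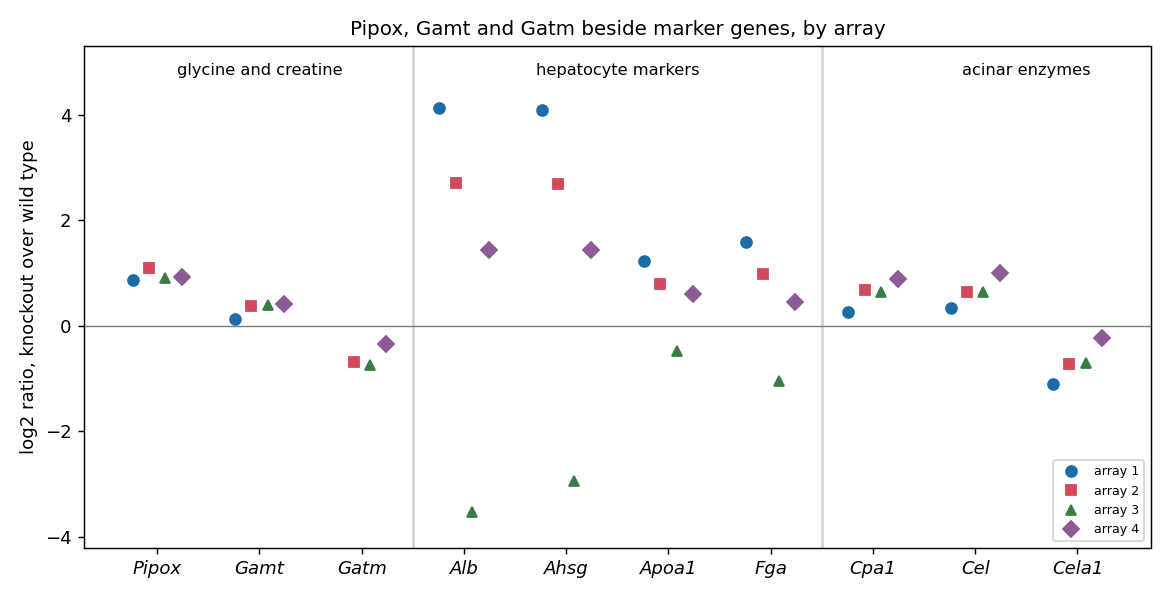
Log2 ratio on each array (vertical axis) for Pipox, Gamt and Gatm beside 4 hepatocyte markers and 3 acinar enzymes. Alb and Ahsg range from -3.52 to 4.13 and Pipox from 0.87 to 1.09, and Cpa1, Cel and Cela1 have their lowest ratio on array 1, as Gamt does. The 4 hepatocyte markers shown are all below 0 on array 3. Ambp (0.45 to 0.76 over the arrays), Apoa2 and Itih1, which are above 0 there, are not plotted.

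Neighbouring pathways showed single genes moving in both directions. Over 7 lists with 101 genes, 96 were tested, of which 10 rose and 9 fell, with a median ratio of 0.031. Of all 15524 genes tested, 9.45% were higher and 5.11% lower past the threshold. These shares also stand beside the counts of each list below, and nothing is read from the counts. Of these 19 genes, 6 passed whichever array was left out and 13 did not pass without at least 1 array. For Ggh, 1 of the 6, this rests in part on its other probe.

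Folate enzymes, which take up the one-carbon units from glycine, were all measured. Of 22 genes 2 rose and 2 fell, with a median of 0.019. Mthfd2, a mitochondrial folate dehydrogenase, fell by 0.46 ± 0.083 (SE, n = 4, limma adjusted p = 0.013), with ratios of -0.76, -0.23, -0.50 and -0.34 on arrays 1 to 4. Ggh, which trims the glutamate tail of folates, rose by 0.42 ± 0.071 (n = 3 arrays, adjusted p = 0.014), and its other probe gave 0.44. Without array 2, 3 or 4 the first probe had too few arrays, and the other stood for Ggh at 0.35 to 0.50. Aldh1l2, a mitochondrial formyl-folate dehydrogenase, was lower at -0.21 ± 0.048 with loess (adjusted p = 0.031; 0.056 to 0.119 with each array left out in turn) and at 0.23 with median centring, which is -0.023 against the median gene, and its other probe gave -0.47. Mthfd1, a cytosolic folate dehydrogenase and synthetase, was higher at 0.23 ± 0.056 (adjusted p = 0.034; 0.055 to 0.119 with each array left out in turn), and its other probe gave 0.48. Shmt1 and Shmt2, which interconvert serine and glycine, were at 0.14 and -0.09 and did not pass, and the other probe of Shmt1 gave 0.34.

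In the methyl cycle and choline oxidation 4 of 15 genes fell and 1 rose, with a median of 0.034. Cth, which makes cysteine from cystathionine, fell by 0.52 ± 0.098 (SE, n = 4, adjusted p = 0.015), with ratios of -0.89, -0.21, -0.46 and -0.51. Ahcyl2, a relative of the enzyme that clears S-adenosylhomocysteine, fell by 0.33 ± 0.044 (adjusted p = 0.0045), but its other probes gave -0.08 and -0.07, and median centring put it at -0.086, below the threshold, which is -0.34 against the median gene (-0.34 with loess). Nnmt, a methyltransferase for nicotinamide that competes for the same methyl donor as Gnmt, was lower at -0.27 ± 0.058 with loess (adjusted p = 0.022; 0.050 to 0.086 without array 2, 3 or 4) and at 0.23 with median centring, which is -0.028 against the median gene. Mat2a, which makes that donor and was named after its value was seen, was lower at -0.23 ± 0.055 with loess (adjusted p = 0.032; 0.068 to 0.120 without array 2, 3 or 4) and at 0.16 with median centring, which is -0.091 against the median gene. Slc44a2, of a choline transporter family, was higher at 0.20 ± 0.047 (adjusted p = 0.032; 0.089 to 0.124 without array 1, 3 or 4).

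Among genes that supply or break down glycine 2 of 17 rose and 2 fell, with a median of 0.041. Dao, the peroxisomal D-amino acid oxidase, which also acts on glycine, fell by 0.61 ± 0.12 (SE, n = 4, adjusted p = 0.016; 0.054 without array 4). Its levels were 8.94, 8.73, 8.59 and 8.74 in knockout, against 9.36, 9.81, 8.87 and 9.40 in wild type. Slc25a38, which brings glycine into mitochondria, was lower at -0.35 ± 0.054 with loess (adjusted p = 0.0079) and at 0.19 with median centring, which is -0.064 against the median gene. Gcat, which releases glycine from a threonine breakdown product, rose by 0.34 ± 0.064 (adjusted p = 0.016; 0.059 to 0.064 without array 3 or 4), and Lipt2, of lipoate attachment, was higher at 0.23 ± 0.057 (adjusted p = 0.037; 0.089 to 0.133 without array 1, 2 or 3; 0.19 with median centring, which is -0.065 against the median gene). Gcsh and Dld, the other measured subunits of the glycine cleavage system, were at -0.10 and -0.22 and did not pass, and the other probe of Dld gave -0.00.

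Of the creatine kinases and the genes around arginine 10 of 12 were tested, of which 1 rose and 1 fell, with a median of -0.096. Ckm, the muscle creatine kinase, was higher at 0.26 ± 0.066 (SE, n = 4, adjusted p = 0.041; 0.097 to 0.144 without array 2, 3 or 4; 0.21 with median centring, which is -0.050 against the median gene), while Ckmt1, the mitochondrial form, was at -0.07 and did not pass. Ckm did not pass without background correction, with Feature Extraction processed signals and loess, with the Feature Extraction log ratio or with scaling between arrays (limma adjusted p = 0.058 to 0.098). Its probe was dim, at 7.82 to 8.02 in knockout and 7.52 to 7.80 in wild type. Of 6 markers of skeletal muscle, the tissue Ckm is known for, none rose and 1 fell in limma (1 higher and 1 lower at an unadjusted p under 0.05), and the part of muscle RNA in the ratio of Ckm was not tested. Arg2, a mitochondrial arginase that draws on the same substrate as Gatm, was lower at -0.21 ± 0.055 (adjusted p = 0.044; 0.066 to 0.153 with each array left out in turn). Its probe was dim, at 6.80 to 7.05 in knockout and 7.04 to 7.21 in wild type. With Feature Extraction processed signals and loess Arg2 was at -0.56. Etfa, a subunit of the flavoprotein that accepts electrons from Sardh and Dmgdh, was the gene of 9 flavin carriers that passed, at 0.30 ± 0.075 (adjusted p = 0.035; 0.059 to 0.103 without array 2, 3 or 4). Etfb and Etfdh were at -0.04 and 0.01, and the other probe of Etfdh gave 0.12.

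Pipox was compared with other peroxisomal oxidases and with pipecolate metabolism. Of 17 peroxisomal genes tested 1 rose and none fell past the threshold in limma (4 higher and none lower at an unadjusted p under 0.05), with a median of 0.056. That gene was Amacr, a racemase of branched fatty acids, at 0.24 ± 0.053 (SE, n = 4, adjusted p = 0.027; 0.064 to 0.090 without array 1, 2 or 4), while Cat, catalase, was at -0.04 and did not pass. Of 7 genes of lysine and pipecolate breakdown tested 2 rose, 5 were higher at an unadjusted p under 0.05 and all 7 had a ratio above 0, with a median of 0.16. Among all 15524 genes tested, 4777 had an unadjusted p under 0.05 in limma, in either direction, and the median ratio was 0.013. How many of those were higher, and how many of all genes had a ratio above 0, was not counted. The counts of this list in the higher direction are therefore a description only. Hykk, the hydroxylysine kinase, rose by 0.40 ± 0.047 (adjusted p = 0.0032), with ratios of 0.35, 0.38, 0.51 and 0.37 on arrays 1 to 4. Its probe was dim, with levels of 7.33 to 7.92 over both channels. The size of its ratio depended on the background handling, at 0.67 with Feature Extraction processed signals and loess. Crym, a ketimine reductase that yields pipecolate, was higher at 0.28 ± 0.069 with loess (adjusted p = 0.038; 0.068 to 0.120 without array 1, 2 or 3) but at -0.0075 with median centring, which is -0.26 against the median gene. This probe was dim too, at 7.11 to 7.41 in knockout and 6.94 to 7.09 in wild type. With Feature Extraction processed signals and loess Crym was at 0.92. Aass and Aldh7a1, also of the lysine routes, were at 0.17 and 0.16 and did not pass. The other probe of Aldh7a1 gave -0.05, so the count above 0 holds for the brightest probe of each gene.

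**Figure D5:**
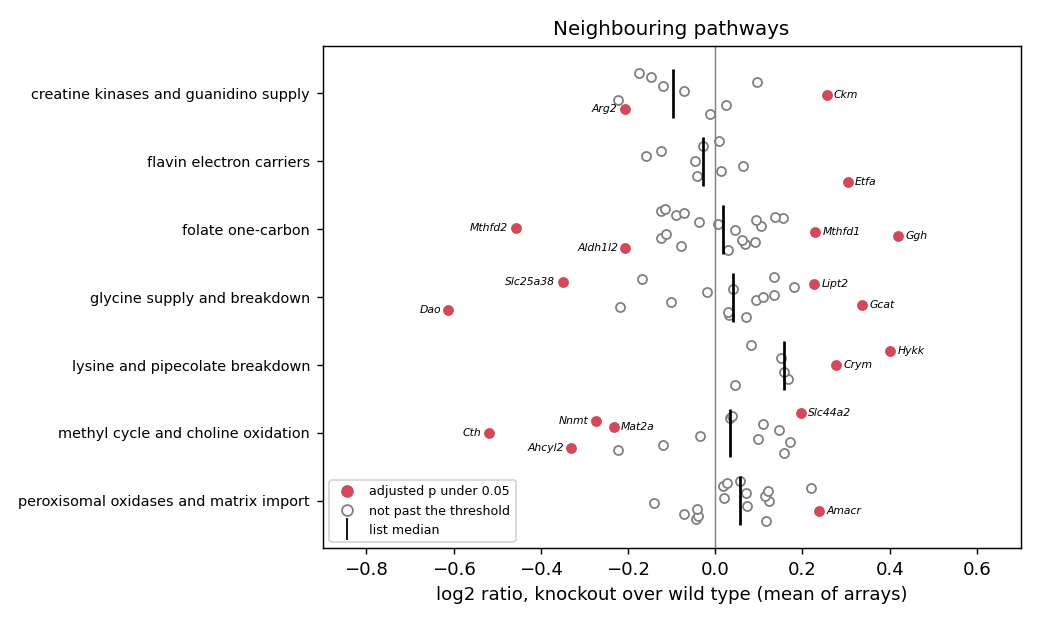
Log2 ratio of knockout over wild type (horizontal axis, mean of arrays) for every tested gene of 7 neighbouring pathway lists, with filled points for genes past the threshold and a bar at each list's median. Medians lie between -0.096 and 0.16, and Dao at -0.61 and Ggh at 0.42 are the outermost points.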

How the data were processed

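The submitters' processing notes name Agilent Feature Extraction 10.5.1.1 as the software that read the scans. Its output, deposited as it came per the file headers, gives every spot a median intensity and a local background intensity in each dye, a processed intensity after background and dye correction, and a log10 ratio (red over green). Per the labels, red was knockout and green wild type on every array.

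Normexp (offset 50) and loess from limma 3.58.1, run in R 4.3.3, were applied to the median signals. Each array lost 597 to 979 spots that the software had called non-uniform, and spots of a probe were averaged. Of 41174 probes, 25097 were named by matching RefSeq accessions without version to a gene table of assembly GRCm38.p6. The files name an older build, so coordinates are given only for the promoter sequences, which come from RefSeq. A probe was tested if well above background in 1 channel on at least 3 arrays, and the brightest probe stood for its gene. Ratios were fitted against 0 with lmFit and eBayes (two-sided, Benjamini-Hochberg). Channel levels were also scaled between arrays on their mean brightness (Aquantile). All arrays lay on 1 slide and share 1 scan, so no batch could be compared. The steps were tested on simulated data.

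Named genes are all members, and of each pathway list up to 4 genes past the threshold with the smallest p. Genes below the threshold were added after their values were seen. The members, lists and motifs were chosen with earlier results of these data known.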

Additional observations from a re-analysis of the deposited data

Results flagged for a closer look

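The ratio of Gamt on array 1 (0.14) stood apart from those on the other arrays (0.38 to 0.42). The gap to the nearest array was 0.859 of the whole range, above Dixon's critical value for 4 samples at 95%. Of 24 probes examined in this way 1 passed that value, and chance flags about 1 in 20 groups.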

How the results depend on the processing

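Across the alternatives in which they were tested (15 for Pipox), the ratios of Pipox, Gamt and Gatm kept their sign; since these genes were chosen by their ratios, this is a description. Keeping non-uniform spots was chosen after seeing the data. With median centring 11922 genes passed (2260 with loess; 79.44% of them higher against 64.91%), as did 6 of the glycine, sarcosine and creatine genes (3 with loess; Sardh, Gnmt, Ckb and Gldc joined Pipox and Gamt, and Gatm did not pass) and 72 of the pathway genes (19); the median of all genes was 0.26. The signs of Aldh1l2 (0.23), Ckb (0.19), Crym (-0.0075), Gldc (-0.30), Gnmt (0.45), Mat2a (0.16), Nnmt (0.23) and Slc25a38 (0.19) then turned. Against that median, Crym (-0.26), Gldc (-0.55) and Gnmt (0.20) still did and so did Ckm (-0.050), Lipt2 (-0.065) and Slc6a8 (-0.22). With loess Gldc had been at 0.0089, which was already -0.0038 against the median gene. Aldh1l2, Ckb, Mat2a, Nnmt and Slc25a38 kept their sign (-0.091 to -0.023). The cause was not tested. The pairing of 2 extracts on an array is inside each ratio; with single channels and no replicate block 107 genes, 1 of the glycine, sarcosine and creatine genes (Pipox) and 0 of the pathway genes passed (15 at an unadjusted p under 0.05 in limma). Without 1 replicate 963 to 1627 genes, 1 to 3 of the glycine, sarcosine and creatine genes and 8 to 12 of the pathway genes passed, with fewer arrays in each fit. Gatm could then be tested only without replicate 1, since its spot there is left out already. Dim probes limit what can be said of Dmgdh.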

Other observations

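Cth differed between arrays in both channels at once. Its levels were 9.49, 9.64, 7.46 and 9.13 in knockout on arrays 1 to 4, against 10.39, 9.85, 7.92 and 9.64 in wild type, so both extracts of array 3 lay over 1 log2 unit below all others. Of 14923 genes measured on all arrays, 25 (0.168%) had both channels of array 3 that far below the other arrays, 53 had it for array 1, 15 for array 4 and 0 for array 2. The ratio of Cth on array 3 (-0.46) lay within the range of the other arrays.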
